A study of Mus musculus with 12 samples.

Results

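Divergent promoters are short stretches of DNA from which a pair of protein-coding genes is transcribed in opposite directions. They were defined here as pairs of autosomal protein-coding genes of the GENCODE M21 annotation (mm10) that lie on opposite strands, with outermost 5′ ends that point away from each other and lie 0 to 1000 bp apart. The rule used the annotation only and gave 734 pairs with 1448 genes, 6.96% of the 20807 autosomal protein-coding genes. Their members in the data were 963 merged elements, each under 1000 bp from both 5′ ends of a pair, out of 65172 merged elements in all and 63116 on autosomes. An element is a stretch covered by overlapping or touching dREG peaks of any substage. A total of 20 genes belonged to more than 1 pair and 28 elements served more than 1 pair, so that the 734 pairs fell into 713 separate loci.

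Nascent transcription was measured by leChRO-seq, a run-on assay that maps engaged RNA polymerase, in spermatocytes of wild-type (WT) mice that were enriched by STAPUT, a separation by cell size at unit gravity, from testes of adult animals. Each of 3 substages of meiotic prophase I, namely leptonema/zygonema, pachynema and diplonema, had 4 libraries. The deposited peaks are 1 list per substage, named as merged over its libraries, so that no value has a replicate spread and no test between substages was possible. The study's methods name C57Bl/6J or DBA/2J as the mouse backgrounds without saying which gave these libraries. They tie DBA/2J to the drug-injected mice of another experiment. The fractions were enriched, not pure, and can hold other germ cells, and whether animals were pooled for a library is not given in the sources used here. In each list, Leydig cell markers were called at 0 of 5 promoters and markers of peritubular and blood cells at 0 of 4. Spermatocyte markers were called at 8, 8 and 7 of 10 promoters in leptonema/zygonema, pachynema and diplonema, with neither Spo11 nor Piwil1 called in any list. Markers of spermatids were called at 4 of 6 promoters in each list, those of spermatogonia at 3 of 5, and those of Sertoli cells at 1, 3 and 2 of 6. The part of other cells in the values was not tested, and in such bulk samples fewer cells of a type and less RNA per cell cannot be told apart.

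At a divergent promoter, initiation occurs on both strands, each transcript running away from the shared stretch into its own gene. Most promoters of vertebrates also start a short, unstable antisense RNA upstream, and at divergent pairs this upstream direction is itself a coding gene. Genes of DNA repair, DNA replication and mitochondrial proteins are well known among such pairs, which are often rich in CpG dinucleotides. The dREG software learned from run-on data to recognize the paired pattern that initiation leaves on the 2 strands. A stronger pattern earns a higher score, but the scale is open-ended and each list has its own. Scores were therefore compared within a list, and a percentile, the rank of a score among all peaks of its own list, was used across lists.

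The DNA between the 5′ ends is printed for 7 of the 27 pairs with a meiosis gene, as the short stretch that separates the annotated starts. The end bases themselves are left out. The sequences are from the RefSeq GRCm38 assembly, on the plus strand and 5′ to 3′, with the minus-strand gene on the left and the plus-strand gene on the right. Capitals mark exact matches, on either strand, to 10 motifs that were searched. These were CCGGAAG for ETS factors, GCATGCGC for NRF1, TGACGTCA for CREB, AAGATGG for YY1, CTCGCGAG for ZBTB33, GGCNGTT for MYB and GTTGCCA for RFX, with GGGCGG for the GC box, TATAAA for the box of that name and CCAAT for the box named after it. Matches of different motifs may overlap, such as ETS with the GC box and CCAAT with MYB.
Trip13/Brd9, chr13:73937785-73937810: gccccaccctgacCCGGAAGcacttg
Emc3/Fancd2, chr6:113531653-113531681: gtaacgtcacgccacggcgcggctttgat
Palb2/Dctn5, chr7:122132986-122133040: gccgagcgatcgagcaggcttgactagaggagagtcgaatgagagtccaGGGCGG
Trmt6/Mcm8, chr2:132816056-132816140: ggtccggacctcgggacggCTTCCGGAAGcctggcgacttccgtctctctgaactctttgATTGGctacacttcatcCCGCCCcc
Rad51c/Tex14, chr11:87404955-87405064: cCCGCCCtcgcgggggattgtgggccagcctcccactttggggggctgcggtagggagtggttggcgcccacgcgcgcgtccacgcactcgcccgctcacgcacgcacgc
Smc1b/Ribc2, chr15:85131965-85132077: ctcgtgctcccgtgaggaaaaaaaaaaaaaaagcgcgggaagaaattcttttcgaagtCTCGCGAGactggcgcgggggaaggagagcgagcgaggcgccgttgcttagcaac
Patl2/Terb2, chr2:122186190-122186271: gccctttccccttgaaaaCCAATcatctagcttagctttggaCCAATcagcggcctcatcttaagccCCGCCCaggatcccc
The gap of Trip13/Brd9 was 26 bp long and held an ETS match, whereas the gap of Emc3/Fancd2, of 29 bp, held none of these motifs.

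The gaps of 4 of the highest-scoring pairs, and of the pair that holds Spata1, a spermatogenesis-associated gene singled out in the study, are printed in the same way.
Cinp/Tecpr2, chr12:110889146-110889263: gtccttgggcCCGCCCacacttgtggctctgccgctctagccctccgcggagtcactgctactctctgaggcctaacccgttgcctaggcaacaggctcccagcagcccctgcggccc
Sdhd/Timm8b, chr9:50603813-50603909: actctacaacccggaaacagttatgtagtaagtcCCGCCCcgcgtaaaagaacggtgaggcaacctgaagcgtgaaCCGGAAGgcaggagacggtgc
Kctd19/Lrrc36, chr8:105413503-105413570: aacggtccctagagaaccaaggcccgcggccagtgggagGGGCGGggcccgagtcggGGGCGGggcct
Ndufaf2/Ercc8, chr13:108158624-108158730: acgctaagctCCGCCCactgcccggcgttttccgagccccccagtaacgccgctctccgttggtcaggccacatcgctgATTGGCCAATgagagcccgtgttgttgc
Spata1/Gng5, chr3:146499754-146499806: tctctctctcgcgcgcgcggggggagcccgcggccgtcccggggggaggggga
Cinp/Tecpr2 had the highest score of the pairs in leptonema/zygonema, Sdhd/Timm8b was among the 3 highest in pachynema, and Kctd19/Lrrc36 and Ndufaf2/Ercc8 were among the 3 highest in diplonema.

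To ask how much of this class of promoters was transcribed in each substage, each pair was scored as called where a peak lay under 1000 bp from both of its 5′ ends. Nearly all divergent promoters were called in every substage: 700 of 734 pairs (95.4%, 95% Wilson interval 93.6 to 96.7) in leptonema/zygonema, 695 (94.7%, 92.8 to 96.1) in pachynema and 662 (90.2%, 87.8 to 92.1) in diplonema. The background was the 17774 single promoters, genes with no other protein-coding 5′ end within 2000 bp, of which the lists of leptonema/zygonema, pachynema and diplonema called 50.8%, 51.5% and 42.8%. The difference was 44.6 percentage points (95% interval 42.7 to 46.1), 43.2 points (41.2 to 44.8) and 47.4 points (44.9 to 49.5), respectively. These intervals cover the counting of promoters only, and neighboring promoters are not independent. A peak over either 5′ end of a pair lay under 1000 bp from both, so that either gene could give the call. A single promoter had only its own gene. The part of this in the difference was not tested. Much of this difference moved with CpG content. Among promoters with an observed to expected CpG ratio of at least 0.6, which made up 85.6% of the pairs and 45.8% of the single promoters, the difference was 14.8, 12.8 and 21.2 points.

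Calls were also more stable at divergent promoters. Here too a peak at either gene of a pair could keep the call, and the part of this was not tested. A total of 652 pairs (88.8%) were called in all 3 lists, 32 (4.36%) in leptonema/zygonema and pachynema but not diplonema, and 22 (3.00%) in none. Of all single promoters, 40.6%, 7.15% and 45.0% had these patterns, in the same order. Among promoters called at least once, 91.6% (89.3 to 93.4) of pairs and 73.8% (72.9 to 74.6) of single promoters were called in all 3 lists. Among those rich in CpG, the shares were 93.5% and 79.3%. Of the 700 pairs called in leptonema/zygonema, 684 (97.7%, 96.3 to 98.6) were called in pachynema, against 94.0% (93.5 to 94.5) of single promoters. Of the 695 called in pachynema, 657 (94.5%, 92.6 to 96.0) were called in diplonema, against 81.8% (81.0 to 82.5) of single promoters. The pairs that were dropped were mostly weak ones. From pachynema to diplonema, calls were kept at 98.0% of the pairs with a score in the upper part of the pachynema list (above its median) and at 19 of 44 pairs below it (43.2%, 29.7 to 57.8). The corresponding shares of single promoters were 91.6% and 35.5%.

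**Figure D1:**
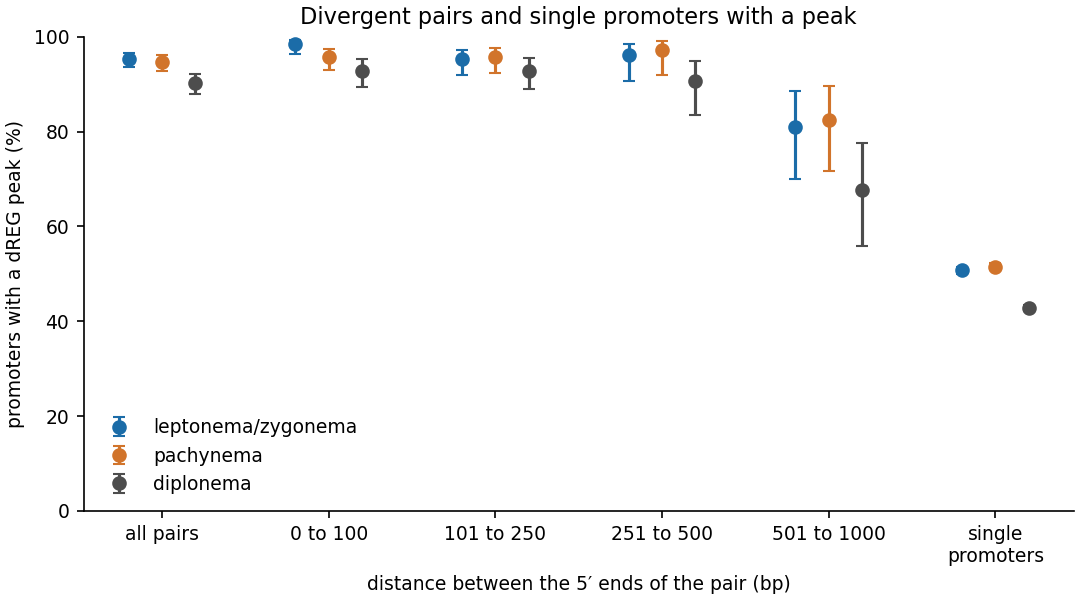
Share of promoters with a dREG peak (percent, y axis) for all 734 divergent pairs, for pairs by the distance between their 5′ ends (bp, x axis) and for 17774 single promoters, with 1 point per substage and 95% Wilson intervals. Pairs up to 500 bp apart sat above 90% in each substage, pairs over 500 bp apart between 67.6% and 82.4%, and single promoters between 42.8% and 51.5%.

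The calls were also counted by the distance between the genes. Since a peak must lie under 1000 bp from both ends, the stretch in which it can count shrinks as the gap widens, so that a lower share and a lower highest score at wide gaps are in part built into the rule. The median gap was 127 bp (interquartile range 65.2 to 239), and the widest was 986 bp. Pairs with a gap of 0 to 100 bp (n = 308) were called in all 3 lists in 91.9% (88.3 to 94.4) of cases, those with over 100 to 250 bp (n = 252) in 90.9% (86.7 to 93.8), those with over 250 to 500 bp (n = 106) in 89.6% (82.4 to 94.1) and those with over 500 bp (n = 68) in 66.2% (54.3 to 76.3). The intervals of the 3 shorter classes overlapped, and the widest class lay below all of them. The median score of called pairs was also lower at wide gaps, 1.15, 1.15, 1.09 and 1.03 in leptonema/zygonema from the shortest to the widest class. In pachynema it was 1.19, 1.16, 1.09 and 1.00. In diplonema it was 0.987, 0.933, 0.859 and 0.853. Just outside the rule, the 44 pairs with a gap of over 1000 and up to 1500 bp were called in 50.0%, 54.5% and 38.6% of cases.

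In the element view, 697 of the 963 members (72.4%, 69.5 to 75.1) had a peak in all 3 lists, against 57.0% (56.1 to 57.8) of 13634 elements at single promoters and 31.4% of all autosomal elements. The difference to single promoters, 15.4 points (12.4 to 18.3), was 7.82 points where peaks were not merged. Per list, 89.5%, 89.1% and 77.2% of members had a peak in leptonema/zygonema, pachynema and diplonema, where 83.6%, 85.6% and 63.6% of single-promoter elements and 78.2%, 72.1% and 39% of all autosomal elements did. Elements were also split by the 5′ ends they covered. Since an element joins peaks of any list, its width is not independent of the number of lists, and the part of this was not tested. The 655 members that covered both 5′ ends had a median width of 1430 bp, and 93.4% (91.3 to 95.1) of them were in all 3 lists. Of the 8812 single-promoter elements that covered their 5′ end, with a median width of 1180 bp, 76.7% (75.9 to 77.6) were. Of the 40 members that covered 1 end, 24 were in all 3 lists (95% interval of the share 44.6 to 73.7%), below the single-promoter elements over their end. The 268 members that covered neither end were narrower (median 430 bp), and 22.8% (18.1 to 28.1) were in all 3 lists, where 20.8% (19.7 to 21.9) of the 4822 elements beside single promoters were. The latter 2 intervals overlap. Most pairs (468) had 1 element, 210 had 2, 33 had 3 and 1 had 4.

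Peaks usually spanned both transcription start sites. Both 5′ ends lay under a peak in 662 pairs (90.2%, 87.8 to 92.1) in leptonema/zygonema, 652 (88.8%, 86.3 to 90.9) in pachynema and 608 (82.8%, 79.9 to 85.4) in diplonema. A single peak covered both in 601, 589 and 556 of these pairs, and separate peaks in 61, 63 and 52. Among called pairs, both ends were covered in 94.6%, 93.8% and 91.8%. The 5′ end of called single promoters lay under a peak in 89.2%, 88.9% and 87.3%. The span of 1 peak depended on the gap: in leptonema/zygonema a single peak covered both ends in 97.7% of pairs with a gap up to 100 bp, in 90.9% at over 100 to 250 bp, in 65.1% at over 250 to 500 bp and in 2.94% at over 500 bp. Pairs with a single covered end were few. Only the minus-strand end was covered in 15, 16 and 19 pairs, and only the plus-strand end in 15, 17 and 19 pairs. In all 3 lists both ends were covered in 580 pairs, and 31 pairs went from both ends in the earlier lists to neither in diplonema. A further 15 pairs lost the plus-strand end alone in diplonema and 7 lost the minus-strand end alone. Among the 15 were Rad51ap1/D6Wsu163e, Cfap52/Stx8, Uqcrq/Gdf9 and Psme2/Rnf31, and among the 7 were Cep170/Sdccag8, Safb2/Safb and Ndufa5/Asb15. These genes were picked from the list after their values were seen.

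Where separate peaks marked the 2 genes, their scores could be compared end by end. The absolute difference had a median of 0.268 in leptonema/zygonema (61 pairs), 0.332 in pachynema (63 pairs) and 0.197 in diplonema (52 pairs). The same gene carried the higher score in leptonema/zygonema and pachynema in 39 of 48 pairs with separate peaks in both lists, and in pachynema and diplonema in 31 of 40. It was the same gene in all 3 lists in 22 of 35 pairs. Base pairs under peaks within 1000 bp of both ends had a median of 1290, 1330 and 1130 bp per called pair in leptonema/zygonema, pachynema and diplonema, against 1090, 1170 and 990 bp per called single promoter.

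**Figure D2:**
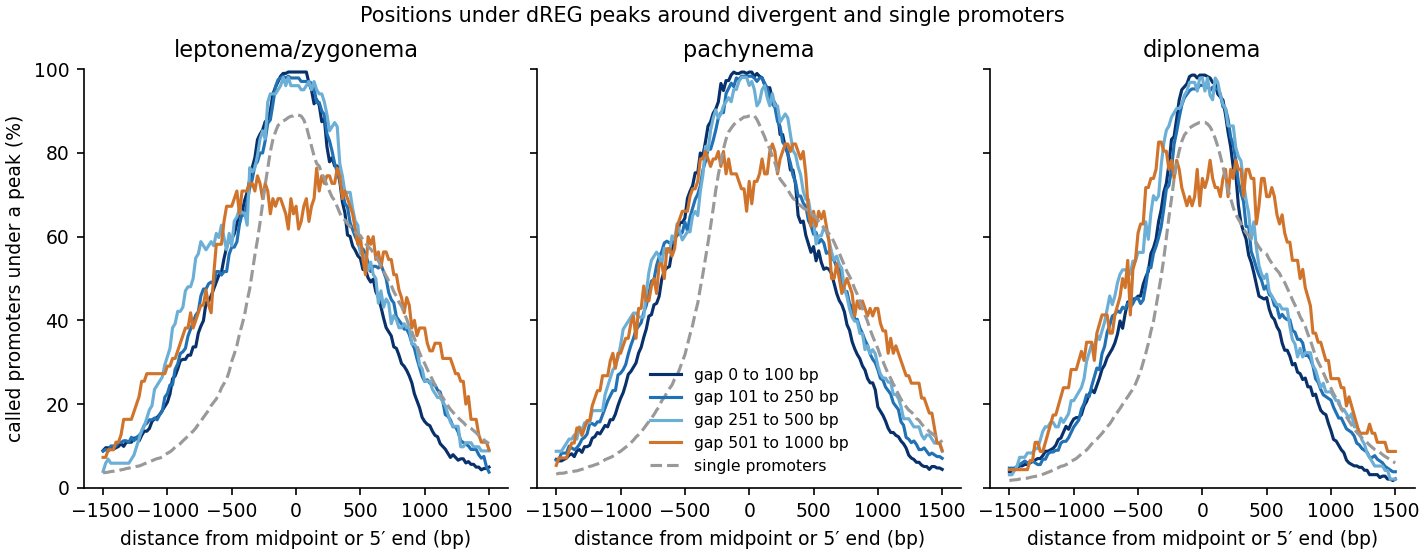
Share of called promoters (percent, y axis) whose position at a given distance (bp, x axis) lay under a dREG peak, by substage, for pairs in 4 gap classes around the midpoint of the gap and for single promoters around the 5′ end with the gene body to the right. At 400 bp to the left and right, 68.6% and 60.4% of the shortest-gap pairs were covered in leptonema/zygonema, against 41.3% upstream and 63.1% downstream at single promoters.

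The plot of positions under peaks shows the shape of the initiation zones. In leptonema/zygonema the midpoint of the gap was under a peak in 99.3% of called pairs with a gap up to 100 bp, and in 67.3% of those with a gap of over 500 bp, where coverage was higher, 74.5% at 300 bp left and 72.7% at 300 bp right of the midpoint. The shorter gaps gave a zone that reached far on both sides. Single promoters were more lopsided, with 41.3% covered at 400 bp upstream and 63.1% at 400 bp downstream. In diplonema the zone of the shortest-gap pairs was narrower, with 55.9% and 51.4% covered at 400 bp to the left and right. Pairs over 500 bp apart did not follow this at the same distance, with 73.9% covered on either side against 70.9% and 69.1% in leptonema/zygonema.

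Divergent promoters also ranked higher in their lists than single promoters that were called, by the highest score of the peaks near them. Called pairs had more peaks to draw from, with a median of 3, 3 and 2 per pair against 2 in each list per single promoter, and more than 1 peak in 86%, 86.6% and 75.4% of pairs against 70.9%, 73.5% and 63.8% of single promoters. The part of this in the scores was not tested. The median of the highest score per called pair was 1.14, 1.15 and 0.948 in leptonema/zygonema, pachynema and diplonema, and that of single promoters 1.01, 0.996 and 0.811. In percentiles of the list, the medians were 88.0, 91.2 and 86.1 for pairs and 81.1, 82.7 and 76.8 for single promoters. Among called pairs, 42.6%, 53.5% and 38.5% lay in the top 10% of their list, against 27.5%, 33.0% and 25.4% of called single promoters. The difference in median score was 0.123 (0.105 to 0.140), 0.151 (0.127 to 0.174) and 0.137 (0.110 to 0.159), and it was 0.105, 0.125 and 0.123 among promoters rich in CpG. With scores of at least 0.5 it was 0.085, 0.0995 and 0.08, and with lists of equal size 0.081 and 0.0955 in leptonema/zygonema and pachynema. The highest-scoring peak covered both 5′ ends in 79.0%, 75.5% and 74.9% of called pairs and neither end in 9.14%, 12.9% and 14.0%. The score of a pair can thus belong to a peak beside the shared stretch.

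**Figure D3:**
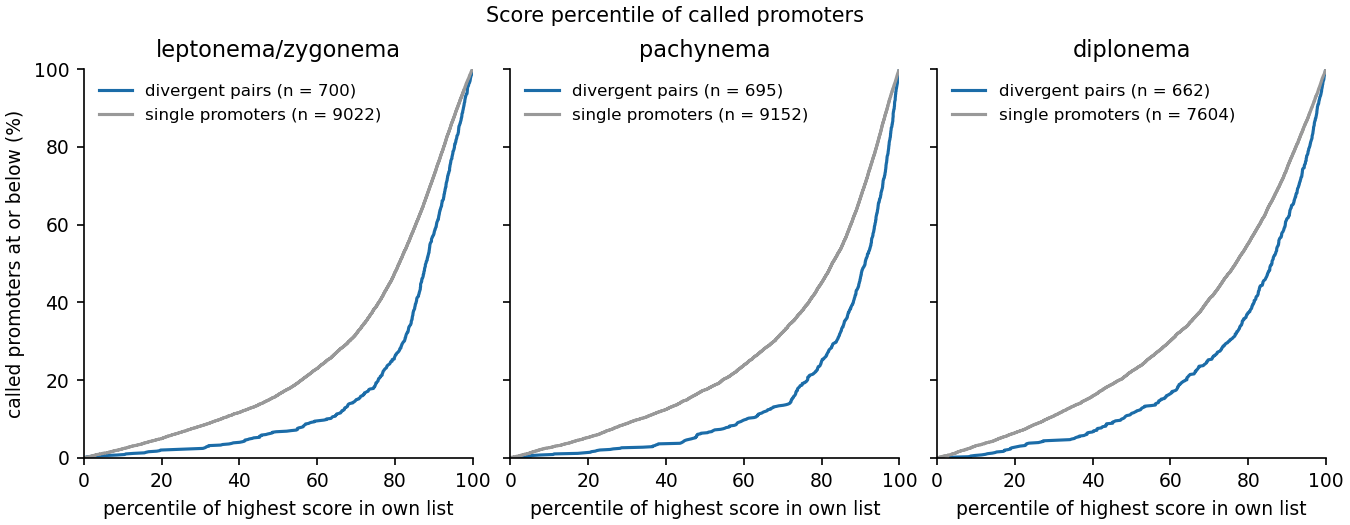
Cumulative share of called promoters (percent, y axis) against the percentile of their highest dREG score within their own list (x axis), by substage, for divergent pairs and single promoters. The curve of the pairs lies to the right of that of single promoters in each list, with medians of 88.0, 91.2 and 86.1 against 81.1, 82.7 and 76.8.

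Across substages, pairs called in both lists moved by a median of +1.68 percentile points from leptonema/zygonema to pachynema (n = 684) and by -3.75 points from pachynema to diplonema (n = 657). Single promoters moved by +1.25 and -6.63 points. The size of the pairs' change depended on the peaks used, with 2.63 and -6.60 points for peaks with scores of at least 0.5 and 3.54 points for the first step in lists of equal size. The first step did not differ between the classes beyond the interval of the difference, 0.422 points (-0.118 to 1.08). The later difference, 2.89 points (1.78 to 3.76), was not seen in lists of equal size: with the 38603 highest-scoring peaks of each list it was -0.0745 points (-0.927 to 0.885), and the median of the pairs themselves turned from a fall to a rise of 1.12 points (0.352 to 2.03). The fall in rank thus depended on the length of the lists. The diplonema list held 38603 peaks, the leptonema/zygonema list 71107 and the pachynema list 68352.

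**Figure D4:**
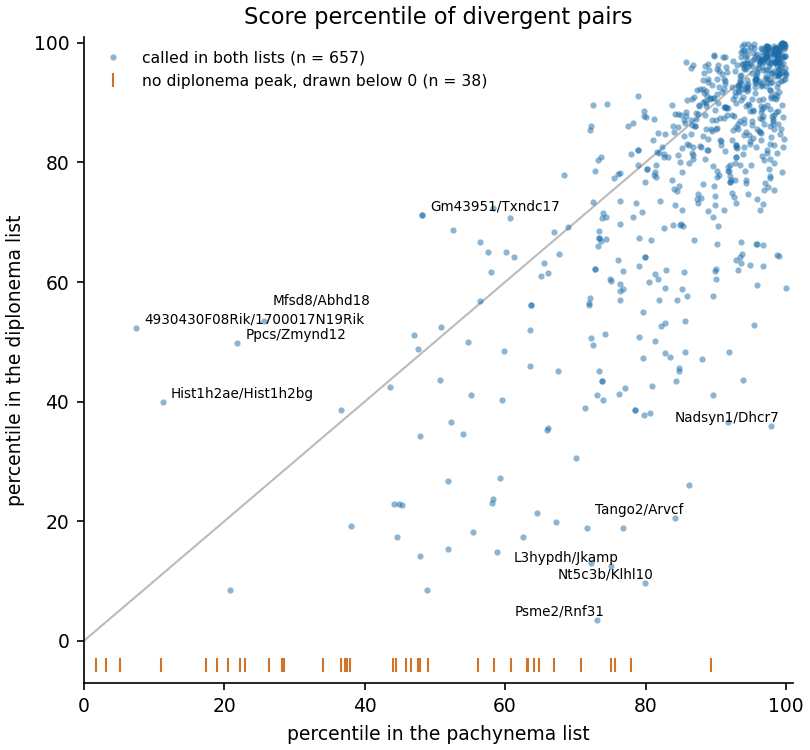
Percentile of the highest dREG score of each divergent pair in the pachynema list (x axis) and in the diplonema list (y axis), with the diagonal of equal rank, for 657 pairs called in both. The 38 pairs with a pachynema peak and no diplonema peak are ticks below 0, and the 5 largest falls and rises are named.

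Meiosis genes were often part of a divergent pair. Of 126 annotated genes on a list of meiosis and recombination genes, 26 (20.6%) lay in divergent pairs, where 6.96% of all autosomal protein-coding genes did. They formed 27 pairs, of which 27, 27 and 25 were called in leptonema/zygonema, pachynema and diplonema, close to the shares over all pairs of 95.4%, 94.7% and 90.2%. Their median scores were 1.23, 1.25 and 1.02, beside medians of all called pairs of 1.14, 1.15 and 0.948. In each list most of them lay above the latter median, 21, 22 and 17 of 27. Pairs that share a gene can carry the same peaks, so that these 27, like the repair pairs below, are not all separate promoters. No test of the list was made, since it was chosen with results of these data known.

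Among the pairs of strand-exchange genes, Rad51c/Tex14 joins a gene of homologous recombination to a gene needed for the bridges between germ cells. Its scores were 1.21, 1.31 and 1.15 in the order of the substages. Its strongest peak in leptonema/zygonema, at chr11:87404131-87404810, lay within Rad51c and covered neither 5′ end, and in diplonema 1 peak at chr11:87404171-87405240 covered both 5′ ends. Palb2/Dctn5, which joins another such gene to a dynactin subunit, scored 1.42, 1.33 and 1.04, ranking at percentiles 99.7, 99.0 and 91.8. Aspa/Spata22, the latter a cofactor of single-stranded DNA binding in meiosis, scored 1.24, 1.24 and 1.16. Zfyve26/Rad51b was separated by 977 bp and gained most in rank from leptonema/zygonema to diplonema among the pairs of this list, with scores of 1.04, 1.10 and 1.14 and percentiles of 82.6, 88.5 and 96.2. Those scores belong to the peak over the Zfyve26 end, while a separate peak over the Rad51b end scored 0.660, 0.750 and 0.464.

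Other pairs hold genes of crossover formation and chromosome structure. Trip13/Brd9, in which Trip13 encodes an ATPase that removes HORMA-domain proteins from synapsed axes, scored 1.41, 1.42 and 1.10 from a peak over both ends (chr13:73937121-73938400 in leptonema/zygonema). Smc1b, a meiotic cohesin subunit, shared its promoter with Ribc2, and the pair scored 1.22, 1.31 and 1.25, at percentiles 92.9, 98.6 and 99.1. Ccnb1ip1/Parp2, the former a crossover regulator, scored 1.14, 1.16 and 0.843. Stag3, another meiotic cohesin subunit, was paired with both Gpc2 and Gm43720 by the annotation. Both pairs carried the same peaks, which scored 1.23, 1.16 and 0.809.

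Checkpoint and Fanconi genes gave 1300017J02Rik/Topbp1 (1.43, 1.23 and 1.25), Brix1/Rad1 (1.33, 1.25 and 1.02), Atm/Npat (1.30, 1.27 and 1.10), Hscb/Chek2 (1.13, 1.30 and 0.939) and Emc3/Fancd2 (1.40, 1.35 and 1.28) in leptonema/zygonema, pachynema and diplonema. Emc3/Fancd2 was above the percentile 99.4 in each list. Hscb/Chek2 ranked at percentile 87.8 in leptonema/zygonema and 98.3 in pachynema. The pairs with no diplonema peak were Patl2/Terb2 and Xrcc3/Zfyve21. Patl2/Terb2, in which Terb2 encodes a protein that attaches telomeres to the nuclear envelope, scored 0.859 and 0.718 in the earlier lists. Xrcc3/Zfyve21, which also holds a gene of homologous recombination, scored 0.824 and 0.522. C2/Ehmt2, in which Ehmt2 encodes a histone methyltransferase, was the lowest-scoring pair of the list called in all substages (0.762, 0.578 and 0.485).

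**Figure D5:**
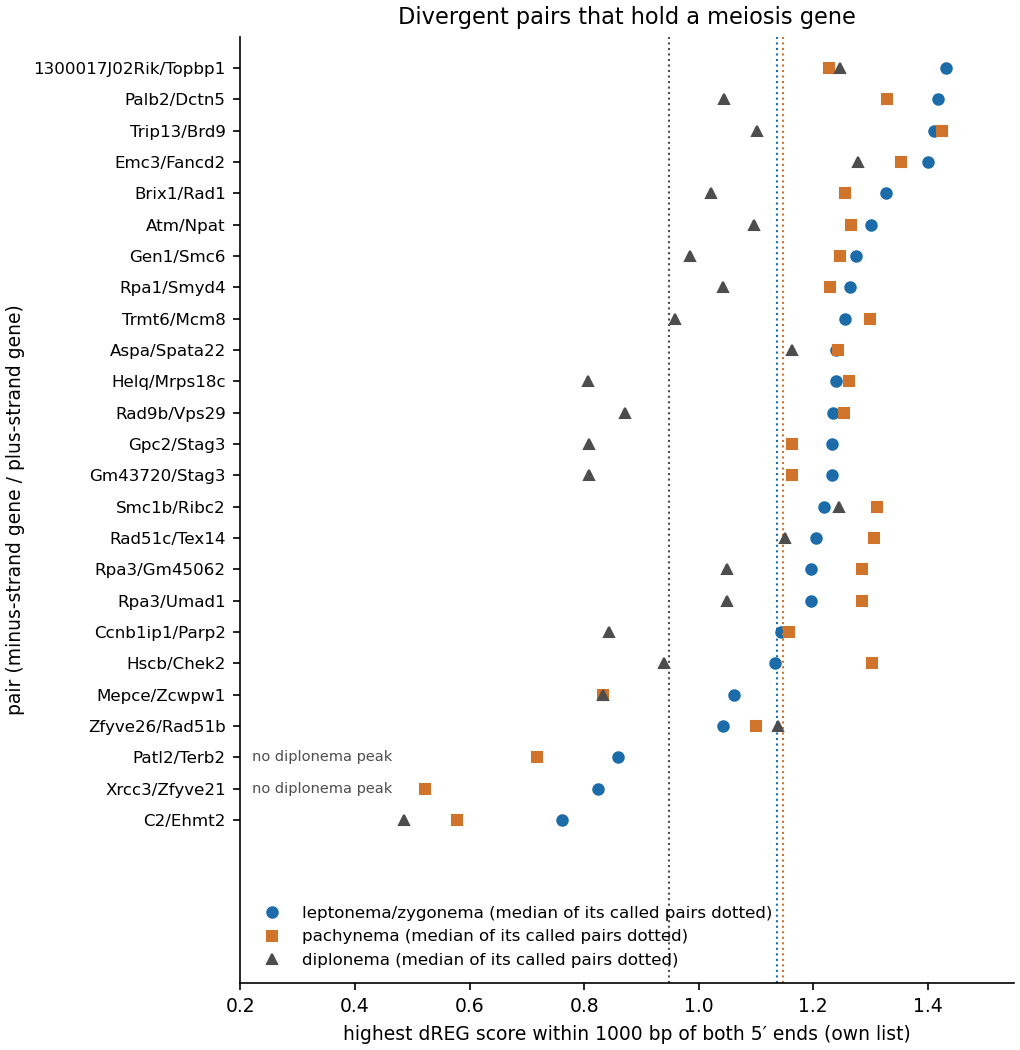
Highest dREG score (x axis) of 25 of the 27 divergent pairs with a meiosis gene (y axis), with 1 symbol per substage and dotted lines at the median of all called pairs of that substage. Scores are to be read within a substage: 19, 20 and 15 of the 25 pairs lie above the line of their own list, and Patl2/Terb2 and Xrcc3/Zfyve21 had no diplonema peak.

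Genes of DNA repair and replication, on a list that shares members with the meiosis list, were divergent in 19 of 79 cases (24.1%), and all 19 pairs were called in each list (medians 1.23, 1.26 and 1.09), close to the shares over all pairs of 95.4%, 94.7% and 90.2%. Toe1/Mutyh, the latter a DNA glycosylase, had the highest score of them in leptonema/zygonema (1.44, 1.28 and 1.09), and Pinlyp/Xrcc1, the latter a scaffold of single-strand break repair, in pachynema (1.37, 1.38 and 0.913). The only element of Pinlyp/Xrcc1 lay on the Xrcc1 side of the gap and covered neither 5′ end. Rad54l/Pomgnt1 was on neither list and was noticed after its values were seen: it scored 1.07 and 1.11 in leptonema/zygonema and pachynema, at percentiles 84.3 and 89.3, and had no peak in diplonema. RAD54L is a translocase of homologous recombination. Of all pairs without a diplonema peak it had the highest score in pachynema.

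Genes of the mitochondrion formed another large set. Subunits and assembly factors of complex I lay in 12 pairs, all called in each list (medians 1.15, 1.22 and 1.03), where 95.4%, 94.7% and 90.2% of all pairs were. Ndufaf2/Ercc8, which joins an assembly factor to a gene of transcription-coupled repair, had the third highest score of all pairs in diplonema, with scores of 1.32, 1.35 and 1.33 and percentiles of 97.7, 99.4 and 99.9. Genes of the mitochondrial ribosome lay in 18 pairs, of which the same number, 16, was called in each list (medians 1.14, 1.16 and 0.915). Mrpl50/Zfp189 ranked higher in each successive list, at percentiles 84.2, 94.6 and 99.9. Eme2/Mrps34 and Mrpl49/Fau had no peak in any list. Sdhd/Timm8b, which joins a subunit of succinate dehydrogenase to a chaperone of mitochondrial import, scored 1.25, 1.45 and 1.11.

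Pairs with genes of sperm and cilia were called about as often as all pairs (95.4%, 94.7% and 90.2%). The 10 pairs with a spermatid or sperm gene were called in 10, 9 and 9 cases (medians 1.16, 1.22 and 1.01), and Dgcr2/Tssk2, the latter a testis-specific kinase, was called in leptonema/zygonema alone with a score of 0.358. The 17 pairs with a gene of cilia or intraflagellar transport were called in 17, 17 and 16 cases (medians 1.12, 1.14 and 0.923). Spata1/Gng5, the pair that holds the study's Spata1, scored 0.617, 0.730 and 0.629, and its strongest peak in pachynema (chr3:146498541-146499130) lay on the Spata1 side of the shared gap and covered neither 5′ end. Kctd19/Lrrc36, which holds a gene needed for male meiosis, had the highest score of all pairs in diplonema, 1.40, and scored 1.32 and 1.35 in the earlier lists.

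The counts of the next groups are small and are to be read against the 95.4%, 94.7% and 90.2% of all pairs that were called. RNA polymerase subunits lay in 9 pairs, called in 8, 7 and 6 cases, and Polr3c/Rnf115 scored highest in each list (1.35, 1.33 and 1.26), whereas Polr1c/Yipf3 had no peak. Mediator subunits lay in 5 pairs, all called, with median percentiles of 79.3, 77.0 and 42.3 beside 88.0, 91.2 and 86.1 over all called pairs. Proteasome genes lay in 7 pairs, called in 7, 6 and 6 cases (medians 1.02, 0.956 and 0.773). In leptonema/zygonema, pachynema and diplonema, 0, 2 and 1 of these pairs lay above the median of all pairs. Genes of the anaphase-promoting complex lay in 5 pairs, called in 5, 4 and 5 cases. Cdc27/Myl4, in which a cell cycle gene is paired with a muscle myosin light chain, scored 1.29, 1.26 and 1.25. Chaperone genes lay in 12 pairs and all were called in each list (medians 1.14, 1.14 and 0.986). Genes named Tmem lay in 23 pairs, called in 23, 23 and 21 cases, and those named Zfp in 18 pairs, called in 16, 17 and 15 cases, with medians of 1.00, 0.854 and 0.737.

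Clustered histone genes were often arranged in this way, and their pairs scored low. Of 67 annotated genes, 27 (40.3%) lay in 14 pairs, and 12 of these pairs joined an H2A to an H2B gene, the histones that form a dimer in the nucleosome. Calls were made at 10, 11 and 11 of 14 pairs, against 95.4%, 94.7% and 90.2% of all pairs, and the medians were 0.794, 0.823 and 0.596. No histone pair was above the median of all pairs in leptonema/zygonema or pachynema. Hist1h2ba/Hist1h2aa, the pair of testis variants of H2B and H2A, was the exception in diplonema, with scores of 1.09, 1.11 and 1.15 and percentiles of 85.2, 88.9 and 96.4. Hist1h2an/Hist1h2bp scored 1.09, 0.823 and 0.596. Hist2h2ac/Hist2h2be had no peak in leptonema/zygonema and shared with Bola1/Hist2h2ab a peak of score 0.929 in pachynema (chr3:96219501-96220390) and 0.884 in diplonema. The pachynema peak lay over the gap of Bola1/Hist2h2ab and covered neither 5′ end of Hist2h2ac/Hist2h2be. Bola1/Hist2h2ab had its own leptonema/zygonema peak, of score 0.273, at percentile 0.447. Histone genes are near-identical copies, and reads that fit several copies may be lost or split, so these calls are uncertain. Outside the germline, Col4a4/Col4a3, a pair of basement membrane collagens, was called weakly in leptonema/zygonema (0.397) and pachynema (0.304) and not in diplonema.

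The largest shifts in rank picked out pairs of mixed function. From pachynema to diplonema the greatest fall was that of Nt5c3b/Klhl10, in which Klhl10 is a gene of spermatid differentiation. Its scores were 1.40, 0.945 and 0.314, at percentiles 99.5, 79.9 and 9.74. Psme2/Rnf31, L3hypdh/Jkamp, Tango2/Arvcf and Nadsyn1/Dhcr7 also ranked lower in diplonema, the last going from percentile 97.9 to 35.9. The largest rise was that of 4930430F08Rik/1700017N19Rik (percentiles 7.45 and 52.3). The pachynema list was longer than the diplonema list, and with lists of equal size the median change of the pairs was of the opposite sign. From leptonema/zygonema to pachynema, Tst/Mpst, a pair of sulfurtransferase genes, went from percentile 2.54 to 76.2, and Gm49661/Prdx2 from 10.5 to 76.4. Cd3eap/Ppp1r13l went from 75.8 to 11.0 and Chpf/Tmem198 from 64.7 to 1.73. The only element of Cd3eap/Ppp1r13l lay on the Ppp1r13l side of the gap and covered neither 5′ end. Fbxl6/Slc52a2 had the highest score of all pairs in pachynema, 1.45, with 1.11 in leptonema/zygonema and 0.610 in diplonema. Cinp/Tecpr2, in which Cinp encodes a CDK2-interacting protein, scored 1.47, 1.25 and 0.761. Foxa3/Sympk, 838 bp apart, scored 1.46, 1.18 and 0.658 from a peak over the Sympk end (chr7:19023881-19024480 in leptonema/zygonema). These changes come from 1 pooled list per substage and have no error.

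Few pairs were called in a single list. Leptonema/zygonema had 12 such pairs, pachynema 6 and diplonema 1, and none of these pairs scored above 0.631. They were 1.69%, 0.843% and 0.140% of the pairs called at least once. Of single promoters called at least once, 5.15%, 4.07% and 0.869% had these patterns. N4bp3/D930048N14Rik led the first group with 0.631 and Asphd1/Sez6l2 the pachynema group with 0.526. Cenpj/Parp4, the former a centrosome gene, was the only pair called in diplonema alone (0.605). Entr1/Pmpca and Ccnt1/4930415O20Rik scored 1.24 and 1.19 in leptonema/zygonema and 0.654 and 0.752 in pachynema and had no diplonema peak.

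The 22 pairs that were called in no list were mixed. Some join genes of other tissues, such as Pecam1/Milr1 (endothelium and mast cells) and Kirrel2/Nphs1 (kidney podocytes), and 9 of the 22 had a gap of more than 500 bp. Others join genes that most cells use. Polr1c/Yipf3, Eme2/Mrps34, Cyb561d2/Nprl2, Tradd/Fbxl8 and Mrpl49/Fau all had gaps under 100 bp. The nearest peak of any list lay 34081, 8117, 7543, 4003 and 10045 bp from them. Over the 22 pairs this distance had a median of 9961 bp. Dedd2/Zfp526 had the nearest, at 265 bp from the pair but beyond the reach of 1 of its ends.

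The sequence at the strongest peak was compared in 300 bp windows for 712 pairs and 9777 single promoters with any peak. A window at a pair can take in the starts of 2 genes, where a window at a single promoter takes in 1. The part of this in the motif shares was not tested. The medians of GC content were 63.0% and 62.7%, a difference within its interval (-0.412 to 1 points). That depended on the window, with a difference of -2.33 points (-3.08 to -1.67) among windows rich in CpG and 5.33 points (4.28 to 6) in windows at the 5′ end of every promoter. The CpG ratio was higher at pairs, with a median of 0.843 (0.825 to 0.859) against 0.770 (0.765 to 0.777), and 87.9% of pairs against 72.1% of single promoters had a ratio of at least 0.6. The ETS motif CCGGAAG was present in 27.7% (24.5 to 31.1) of pairs and 14.8% (14.1 to 15.5) of single promoters, and in 29.6% against 18% of windows rich in CpG. In windows placed by the annotation alone, at the middle of the gap or at the 5′ end of every promoter, called or not, it was present in 28.3% of 734 pairs and 9.96% of 17774 single promoters. CCAAT was present in 42.4% (38.8 to 46.1) and 35.9% (34.9 to 36.8), and GGGCGG in 68.5% (65.0 to 71.8) and 62.5% (61.5 to 63.4). Among windows rich in CpG the order of GGGCGG was the opposite, 71.2% at pairs and 74.8% at single promoters. ZBTB33 (CTCGCGAG) was found in 3.09% (2.05 to 4.63) and 1.68% (1.44 to 1.95), and YY1 (AAGATGG) in 9.13% (7.23 to 11.5) and 6.52% (6.04 to 7.02). Both depended on the window: the difference was 0.798 points (-0.064 to 2.15) for ZBTB33 in windows of 200 bp and 1.75 points (-0.151 to 4.08) for YY1 at the leptonema/zygonema peak, intervals that include 0.

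The intervals overlapped for the other motifs, with shares at pairs and single promoters of 4.35% and 5.55% for TATAAA, 11.8% and 14.3% for the MYB sequence GGCNGTT, 5.20% and 5.04% for RFX, 3.93% and 3.57% for CREB and 6.18% and 5.02% for NRF1. In windows at the 5′ end of every promoter, called or not, the intervals were apart for 3 of these motifs, with TATAAA in 4.50% of pairs and 11.5% of single promoters, NRF1 in 6.68% and 2.99% and CREB in 4.50% and 2.14%. For NRF1 in windows of 200 bp, the difference was 1.62 points (0.122 to 3.58), an interval that excludes 0. Within pairs, the ETS match was present in 28.4% (25 to 32) of those called in all 3 lists and in 12 of the 60 called in 1 or 2 lists (95% interval of the share 11.8 to 31.8%). Those intervals overlap. A match is a run of letters and does not show that the factor was bound. In the printed gaps, Trip13/Brd9, Trmt6/Mcm8 and Sdhd/Timm8b held an ETS match, and Smc1b/Ribc2 held CTCGCGAG.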

How the data were processed

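The data were 12 leChRO-seq libraries, 4 per substage. Per the study's methods, the authors used PRINSEQ lite to collapse PCR copies that shared a molecular identifier and cutadapt to trim adapters, aligned the reads by BWA against mm10 plus 1 rRNA repeat, and called peaks with dREG at default settings. The authors deposited 1 list per substage, which the list's name marks as merged over libraries, with a dREG score and a p-value per peak. The lists held 71107, 68352 and 38603 peaks, with every deposited p-value at most 0.05. The dREG version and the adjustment of the p-value are not given in the sources used here. The lists hold no read counts, so that the depth behind each list was not analysed here.

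Overlapping or touching peaks, whatever their list, were joined into elements. A pair or single promoter was called in a list where a peak lay under 1000 bp from its 5′ ends, and its score was the highest of those peaks. Percentiles are average ranks within a list. Intervals are 95% Wilson intervals, Newcombe intervals for differences of shares, and order-statistic intervals for medians, combined in the same way for differences of medians. Sequence windows were centered on the midpoint of the strongest peak. The CpG ratio is the number of CG times the length, divided by the product of the numbers of C and G. Genes in pairs or near another protein-coding 5′ end were left out of the single promoters (1585 genes in neither class). Pairs of 2 gene records with the same names (3 cases) were kept.

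Pairs were named if they held a gene of the study's text or of the meiosis list, ranked in the top 3 of a list, had 1 of the 5 largest rises or falls in percentile, led a call pattern, or led a gene list. Of the pairs this rule names, 2 with a meiosis gene count in every total but are not reported here singly. The members and gene lists were chosen with earlier results of these data known. Steps were tested on simulated data. Alternatives were stricter scores or p-values, lists of equal size, other gaps, distances, merging and windows, and 4 that were chosen after seeing the data. Tools were bedtools 2.31.1 and, under Python 3.11.15, pysam 0.24.0, pandas 2.3.3, numpy 2.4.6, matplotlib 3.10.9 and scipy 1.17.1.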

Additional observations from a re-analysis of the deposited data

How the results depend on the processing

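Over 15 results, namely the differences in calls, scores, rank changes, elements, GC content, CpG ratio and ETS and the shares with both ends covered, 64 of 106 alternative values moved by less than their interval, 39 moved further and 3 changed sign. The difference in calls, from leptonema/zygonema to diplonema, was 14.8, 12.8 and 21.2 points in promoters rich in CpG, 47.5, 46.2 and 50.5 points against single promoters clear of all gene types, and 41.6, 39.6 and 43.9 points for pairs defined by transcript 5′ ends. In leptonema/zygonema and pachynema it was 46.8 and 46.5 points with scores of at least 0.5 and 46.1 and 47.0 points with lists of equal size, and in diplonema 49.7 points for gaps up to 500 bp. The difference in median score was 0.085, 0.0995 and 0.08 with scores of at least 0.5, and in the earlier lists 0.081 and 0.0955 with lists of equal size and 0.105 and 0.1245 in promoters rich in CpG. Both ends were covered in 85.7%, 84.2% and 72.3% of pairs with scores of at least 0.5 and in 94.6%, 92.2% and 87.2% with gaps up to 500 bp. With lists of equal size the share was 83.9% and 83.7% in the earlier lists, and with peaks within 100 bp of the end counted it was 91.1% and 86.2% in the later ones. The difference between elements in all 3 lists was 12.4 points with lists of equal size, 11.9 rich in CpG, 21.3 under 500 bp from the ends, 18.5 with peaks within 100 bp merged and 7.82 with none merged. With lists of equal size, the difference in rank change from pachynema to diplonema was -0.0745 points and the pairs' own change 1.12 points. The GC difference was -0.5 points in windows of 200 bp, -2.33 in windows rich in CpG and 5.33 at the 5′ end, where the CpG ratio differed by 0.320, ETS by 18.4 points, the GC box by 23.9, TATA by -7.05, NRF1 by 3.69, CREB by 2.35 and MYB by 0.413 points. The GC box differed by -3.60 points in windows rich in CpG. The alternatives on CpG, on the window at the 5′ end and on 1 pair per locus were chosen after seeing the data. Other causes of these shifts were not tested.

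No paired analysis was possible because the libraries of a substage share 1 merged list, which also leaves no replicate to leave out. The depth behind each list was not analysed here, and a promoter without a peak was not detectable in its list, which does not show that it was silent.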
